A study of Homo sapiens with 28 samples.

Results

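The metallothionein family was examined in human embryonic stem (ES) and embryonal carcinoma (EC) cell lines profiled on Affymetrix exon arrays. The 10 members were MT1A, MT1E, MT1F, MT1G, MT1H, MT1L, MT1M, MT1X, MT2A and MT3, and a transcript cluster or probeset counted as theirs where its annotation held 1 of these symbols, alone or with others. By this rule 62 of 287329 probesets (the exon level) and 10 of 22011 transcript clusters (the gene level, a summary over the probesets of a transcript) belonged to the family. Of the probesets, 53 carried 1 symbol and 9 carried several, and of the clusters 4 carried 1 symbol (MT3, MT1L, MT1X and MT1G) and 6 carried several. MT1A and MT2A had probesets but no cluster annotated to them.

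Metallothioneins are small cysteine-rich proteins that bind zinc and copper, and also toxic metals such as cadmium. Their genes lie side by side on chromosome 16. The transcription factor MTF1 switches them on when free zinc rises, through short metal response elements in their promoters, and glucocorticoids and oxidative stress also induce several of them. MT2A and the MT1 genes are active in many tissues, MT3 is known mainly from the brain, and MT1L is annotated as a pseudogene. In germ cell tumours, from which EC lines are derived, metallothioneins have been studied for their binding of platinum drugs.

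There were 14 arrays, each of 1 cell line in 1 growth condition, with values deposited at both levels. The ES group held 6 lines (H9, H14, Shef3, Shef5, Shef6 and Shef7), all grown on mouse embryo fibroblasts inactivated with mitomycin C, in knock-out DMEM containing 10% Serum Replacement and FGF at 4 ng/ml. The EC plastic group held 5 lines (NCCIT, 2102Ep, 833KE, TERA1 and NTERA2), grown without feeders in high-glucose DMEM containing 10% FCS. The EC feeders group held NTERA2, 2102Ep and 833KE in the feeder condition and medium of the ES lines. Sorting for SSEA3, a surface antigen of undifferentiated cells, preceded RNA extraction in every group. Feeder layer and medium, serum included, changed together, so their parts cannot be told apart.

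The number of arrays limits the precision, and each line was measured once per condition. No pair of arrays was identical, and correlations between arrays over all clusters ran from 0.93 to 0.98. The pluripotency markers with a cluster of their own (8) had mean levels of 9.99 to 11.09 in ES, 10.14 to 11.34 in EC plastic and 10.20 to 10.93 in EC feeders arrays. The labels number the arrays, and 4 had a code of 13 or less (H14, Shef5, and NTERA2 and 2102Ep on feeders) while 10 had a code of 17 or more, including all EC plastic arrays. What the codes stand for is not given in the sources used here.

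Fewer cells of a type and less RNA per cell cannot be told apart in these bulk samples. The array's human probes could also read feeder or differentiated cells left after the sort, so their markers were set beside the groups. Over 17 measured fibroblast markers the mean level was 5.96 to 6.94 in ES, 5.46 to 5.98 in EC plastic and 6.15 to 6.49 in EC feeders arrays, and 2 of the 17 were lower in EC plastic than in ES lines (limma, adjusted p under 0.05). Over 10 endoderm markers the ranges were 5.26 to 6.39, 4.89 to 5.32 and 5.22 to 5.23, with 2 lower in EC plastic than in ES lines. In that comparison 9 of the 17 and 6 of the 10 had an unadjusted p under 0.05 (limma), against 19.2% of all clusters. The called share of all clusters there was 4.60%, in either direction. No marker of these lists was called in EC feeders against ES lines or against EC plastic. Against EC plastic, 15 of the 17 fibroblast markers were above 0, with a median of 0.36 against 0.02 over all clusters. Of the 17, 8 had an unadjusted p under 0.05 (limma), against 14.9% of all clusters. RMA values have no true zero, and the part of these markers in the metallothionein differences was not tested.

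Promoter sequences show the elements by which the family is known to be regulated, and RefSeq's promoter table (build GRCh38.p14) held 3 of the 10 members. The 250 bases before the annotated start are printed 5′ to 3′ for MT2A (chr16:56608334-56608583), MT1H (chr16:56669564-56669813) and MT1X (chr16:56682220-56682469), all on the plus strand. Capitals mark each match, on either strand, to the core of the metal response element, TGCACNC or TGCGCNC.
MT2A: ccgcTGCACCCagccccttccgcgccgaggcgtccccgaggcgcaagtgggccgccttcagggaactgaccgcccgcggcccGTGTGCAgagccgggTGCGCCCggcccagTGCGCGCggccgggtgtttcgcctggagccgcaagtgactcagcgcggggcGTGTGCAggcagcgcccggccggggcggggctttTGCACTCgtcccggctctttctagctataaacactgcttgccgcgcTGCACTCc
MT1H: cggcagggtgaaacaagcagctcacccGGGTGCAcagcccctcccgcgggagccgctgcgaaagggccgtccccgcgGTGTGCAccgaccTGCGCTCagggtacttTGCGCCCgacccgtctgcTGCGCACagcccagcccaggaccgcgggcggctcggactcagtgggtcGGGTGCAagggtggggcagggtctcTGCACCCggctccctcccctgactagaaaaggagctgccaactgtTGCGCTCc
MT1X: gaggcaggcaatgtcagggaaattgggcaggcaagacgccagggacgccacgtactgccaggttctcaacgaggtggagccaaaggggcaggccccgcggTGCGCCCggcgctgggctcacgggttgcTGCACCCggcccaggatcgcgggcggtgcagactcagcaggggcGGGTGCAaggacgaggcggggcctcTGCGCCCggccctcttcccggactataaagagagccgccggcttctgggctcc

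The MT1H window held 8 matches, the MT2A window 7 and the MT1X window 4. Among 35116 promoter windows of the same length, 24.8% held at least 1 match, 1.58% held at least 3 and 0.120% held at least 5. The core of the antioxidant response element, TGACNNNGC, was found once each in the MT2A and MT1X windows and not in that of MT1H, and at least once in 10.9% of all windows. MT1H and MT1X shared a pair of matches at the same distances, 78 to 72 and 53 to 47 bases before the start. A match describes the letters only.

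Across the arrays most of the family moved together. Each of the 62 probesets was centred on its own mean, and the median over the probesets was taken in each array as the family profile. On this log2 scale the highest arrays were TERA1 (1.92), 833KE (1.80) and 2102Ep (1.29) on plastic, followed by 833KE on feeders (1.00) and the ES line H14 (0.74). Next came 2102Ep (0.46) and NTERA2 (0.29) on feeders. The lowest were the ES lines Shef3 (-1.83), Shef7 (-1.54) and Shef6 (-1.40). The other EC lines on plastic stood with the ES lines or little above them: NCCIT had -0.67, beside Shef5 (-0.66) and H9 (-0.65), and NTERA2 had -0.00. The groups thus overlapped, through NCCIT at the low end of EC and H14 at the high end of ES.

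**Figure D1:**
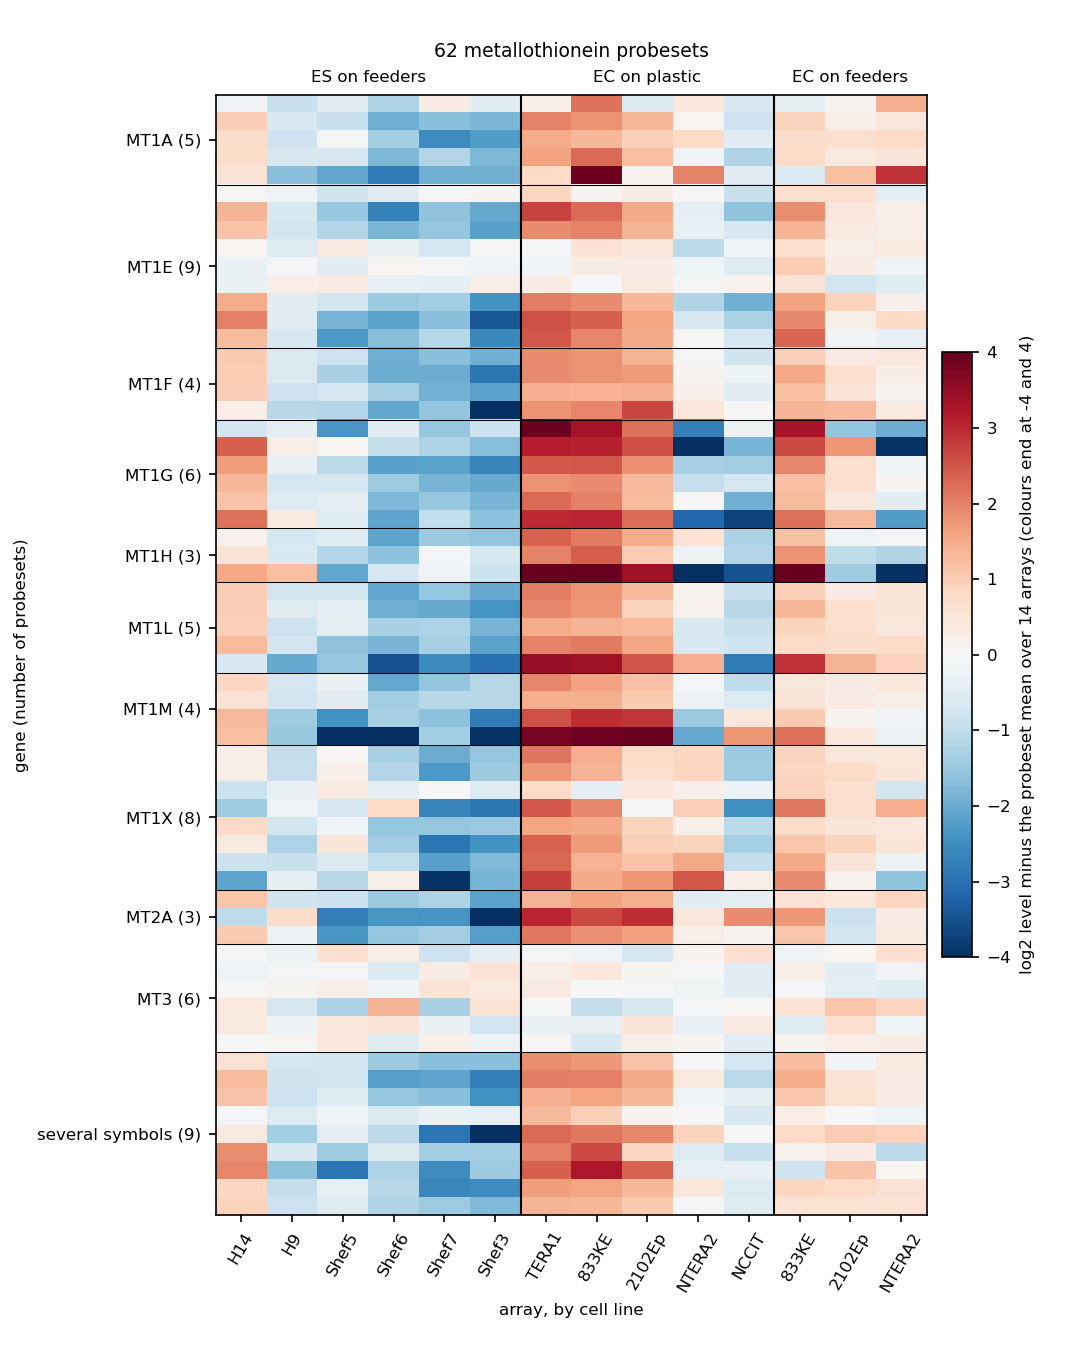
Each row is 1 of the 62 metallothionein probesets and each column 1 of the 14 arrays, ordered within its group by the family profile, with colour giving the log2 level minus the probeset's mean over the arrays. TERA1, 833KE and 2102Ep on plastic are red over most rows, the ES lines other than H14 are mostly blue, and the 6 MT3 rows show little colour.

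The probes limit what this likeness can show. Metallothionein transcripts are nearly identical in sequence, so a probe can bind several of them and reads from close relatives cannot be told apart. Of the 62 member probesets, 34 had a Pearson r of at least 0.9 with the family profile over the 14 arrays, which share arrays and whose profile the probesets themselves make up. So did 12 of 29 probesets annotated only to other metallothionein symbols (MT4, MT1B, MT1DP, MT1JP, MT1P2, MT1P3 and MT1IP). Probeset 3662090 of MT4, a gene known from stratified epithelium, had r = 0.97, and 3662195 of MT1B, r = 0.95. All 5 MT1L and all 4 MT1F probesets passed 0.9, and none of the 6 of MT3 did. Values per gene are therefore values of probesets annotated to that gene.

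The levels of each member were taken as the median over its probesets with 1 symbol. MT2A, the most widely expressed member, had 3 such probesets. Its median was 8.42, 9.29 and 11.80 in the lowest, middle and highest ES line. It was 10.87 in NCCIT, 12.38 in 2102Ep, 12.59 in 833KE, 12.87 in TERA1 and 10.99 in NTERA2 on plastic. On this median all EC lines on plastic were above the 5 ES lines other than H14, while H14 at 11.80 was above NCCIT and NTERA2. The median was the reading of probeset 3662117 in every array. On 2729855 the EC lines on plastic, from 11.33, were also above those 5, which reached 10.98. On 2729857 NTERA2 read 5.71, under H9 at 5.98. On 3662113, shared with MT1A, NCCIT read 10.18, under Shef5 at 10.43. On feeders, the MT2A median stood at 11.12 in NTERA2, 10.02 in 2102Ep and 11.87 in 833KE, and only the last was above every ES line.

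MT1X, a zinc-responsive MT1 gene, had a median of 6.94, 8.35 and 9.43 in the lowest, middle and highest ES line. On plastic it was 8.33 in NCCIT, 10.52 in 2102Ep, 11.03 in 833KE, 11.81 in TERA1 and 10.70 in NTERA2. On feeders it was 9.63 in NTERA2, 10.17 in 2102Ep and 10.82 in 833KE. Every EC array except that of NCCIT lay above every ES array. NTERA2 on plastic, low or intermediate for most members, stood with the high lines here.

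MT1F had ES medians from 7.34 to 10.87 around 8.50. The EC lines on plastic had 9.55 (NCCIT), 11.44 (2102Ep), 11.47 (833KE), 11.52 (TERA1) and 10.02 (NTERA2), and on feeders 10.06 (NTERA2), 10.45 (2102Ep) and 11.25 (833KE). The highest ES value was again that of H14, and without it the ES lines reached 9.16, below all 8 EC arrays. MT1A ran from 7.03 to 9.54 around 8.11 in ES, from 7.62 (NCCIT) to 11.10 (833KE) on plastic, and from 9.22 to 9.59 on feeders.

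MT1E and MT1M were likewise highest in TERA1, 833KE and 2102Ep. MT1E ran from 6.64 to 10.31 around 7.38 in ES lines, and stood at 7.46 in NCCIT and 8.57 in NTERA2 against 10.46 in 2102Ep, 11.18 in 833KE and 11.66 in TERA1. MT1M ran from 6.71 to 9.77 around 7.22 in ES lines, and stood at 8.71 in NCCIT and 7.94 in NTERA2 against 10.90, 11.09 and 11.22 in 2102Ep, 833KE and TERA1. H14 was the highest ES line for both. The probesets of the pseudogene MT1L had a median of 8.16 to 11.48 around 9.27 in ES lines, 9.40 (NCCIT) to 12.44 (TERA1) on plastic and 11.80 in 833KE and 11.16 in 2102Ep on feeders, with NTERA2 just under the latter.

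MT3 was the exception. Its median was 6.22 to 7.32 in ES, 6.57 to 7.25 in EC plastic and 6.46 to 7.03 in EC feeders arrays, and on this median the groups overlapped. These levels lie near the median of all probesets, which was 6.45 to 6.80 over the arrays. Over all 14 arrays it spanned 1.09 log2 units, while the other members spanned 4.07 (MT1A) to 6.65 (MT1H). The MT3 cluster, which is annotated to MT3 alone, spanned 0.69. On it the EC feeders arrays (5.93 to 6.12) stood just above the ES (up to 5.92) and EC plastic arrays (up to 5.79). Neither difference passed (limma adjusted p = 0.328 and 0.464).

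**Figure D2:**
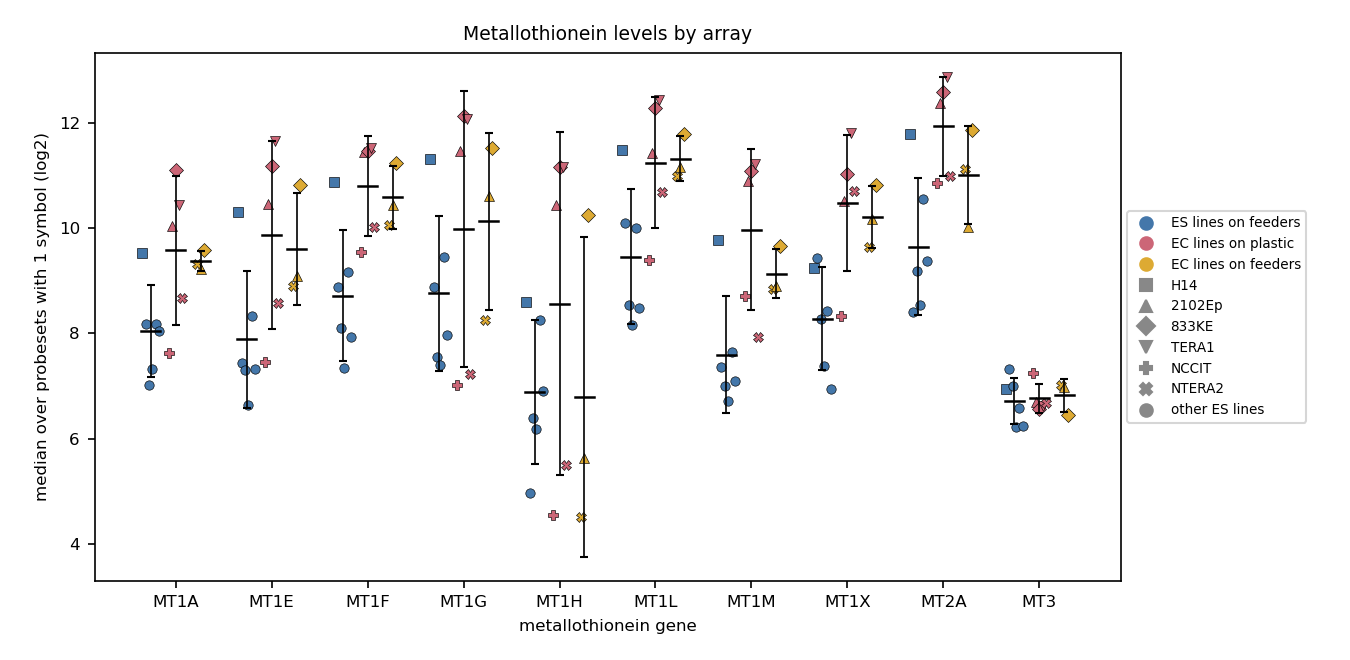
Points are the log2 median over each gene's probesets with 1 symbol in each array, coloured by group, with a bar for the group mean and whiskers of 1 SD (6 ES, 5 EC plastic and 3 EC feeders arrays). H14 lies at or near the top of the ES lines for every gene but MT3, and NCCIT and NTERA2 on plastic lie below 2102Ep, 833KE and TERA1 for every gene but MT3 and, for NTERA2, MT1X.

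MT1G and MT1H separated the EC lines more widely than the other members. Some of the lowest readings that follow, in NTERA2 and NCCIT, were under 4.62, the lowest 25th percentile of all probesets on any array. The size of those gaps rests on dim readings. MT1G probeset 3693008 read 7.81, 9.17 and 12.08 in the lowest, middle and highest ES line. It read 12.13 in 2102Ep, 12.97 in 833KE and 12.89 in TERA1 on plastic, but 6.19 in NCCIT and 6.75 in NTERA2. The last values lie below all 6 ES lines. A second MT1G probeset, 3693001, read 10.85, 11.33 and 11.42 in 2102Ep, 833KE and TERA1, 6.41 in NCCIT and 2.07 in NTERA2.

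The low MT1G readings in NTERA2 were present in both growth conditions: on feeders 3693001 read 4.31 in NTERA2, against 10.02 in 2102Ep and 10.90 in 833KE. A dim MT1G probeset, 3693000, also divided the lines on plastic, with 0.95 in NTERA2 and 3.48 in NCCIT against 5.89 to 7.61 in the other 3. The remaining 3 MT1G probesets had r of at least 0.9 with the family profile, as 3693000, 3693001 and 3693008 did not. Of these, 3693005 read 9.98 in NTERA2 and 10.23 in NCCIT on plastic against 12.18 to 12.78 in the other 3 lines.

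MT1H probeset 3662219 had the widest range of all 62, 10.11 log2 units, with dim readings under 4.62 at its low end. It read 4.96, 6.65 and 8.61 in the lowest, middle and highest ES line. On plastic it read 10.43 in 2102Ep, 11.84 in 833KE and 11.17 in TERA1, and 3.58 in NCCIT and 1.76 in NTERA2. On feeders it read 1.73 in NTERA2, 5.63 in 2102Ep and 11.32 in 833KE. On this probeset NTERA2 was thus below every ES line in both conditions, and 2102Ep had a high value on plastic and one within the ES range on feeders. Other MT1H probesets did not place NTERA2 so low. Probeset 3662212 read 9.64 in NTERA2 and 7.81 in NCCIT on plastic, where the highest ES line had 9.25. On plastic 3662218 read 5.51 in NTERA2, within the ES range of 4.08 to 6.22. Probesets 3662213, 3662217 and 2462595, shared by MT1H and MT1P2, read 10.79, 10.57 and 9.91 in NTERA2 on plastic, above every ES line but H14.

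MT1M probesets 3662156 and 3662157 placed NCCIT differently. Probeset 3662157 read 2.70 to 8.01 in ES lines around 4.11. On plastic it read 10.76 in 2102Ep, 10.72 in 833KE, 10.63 in TERA1 and 8.59 in NCCIT, but 4.82 in NTERA2. NCCIT was above every ES line here and NTERA2 was within the ES range. Probeset 3662156 read 4.72 to 8.85 in ES lines around 6.02, and 10.42 in 2102Ep, 10.49 in 833KE, 10.10 in TERA1, 7.95 in NCCIT and 6.05 in NTERA2 on plastic. There NCCIT was above every ES line but H14.

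**Figure D3:**
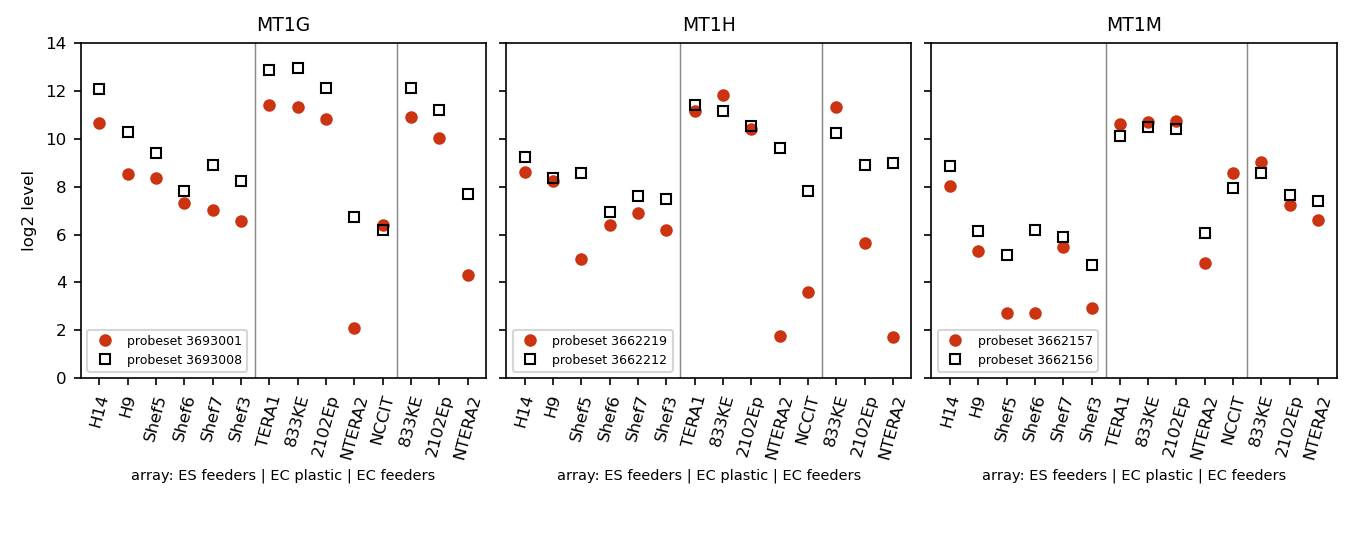
Log2 levels of the 2 probesets with the widest range over the arrays, among those with 1 symbol and reaching a level of 10, for MT1G, MT1H and MT1M, in 14 arrays separated into ES on feeders, EC on plastic and EC on feeders. NTERA2 is at the bottom for MT1G 3693001 and MT1H 3662219 in both growth conditions, while NCCIT is low for these but above the ES lines for MT1M 3662157.

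The first comparison of the design set EC lines on plastic against ES lines. At the exon level 58 of 62 member probesets had a difference above 0, with a median of 1.74 log2 units, against a median of 0.03 over all probesets. Of the members, 7 were called higher in EC lines (limma, two-sided, Benjamini-Hochberg adjusted p under 0.05 over all probesets) and none lower, where 2.07% of all probesets were called higher. At an unadjusted p under 0.05, 43 member probesets were higher and none lower, against 11.3% of all probesets higher. As many of these probesets read shared sequence, they are not separate pieces of evidence.

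The 7 called probesets belonged to MT2A, MT1A, MT1L, MT1F and MT1X, 1 of them shared by MT1X and MT1IP. MT2A probeset 2729857 read 0.82, 2.90 and 5.98 in the lowest, middle and highest ES line. It read 7.14 in NCCIT, 8.20 in 2102Ep, 7.89 in 833KE, 8.31 in TERA1 and 5.71 in NTERA2 on plastic. NTERA2 alone fell within the ES range, under H9. The difference was 4.23 ± 0.75 (SE; limma, adjusted p = 0.0109, n = 5 and 6). Of the 6 ES values, 5 were under 4.62, the lowest 25th percentile of all probesets on any array, so the size of this difference rests on dim readings.

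MT1X probeset 3662258 did not overlap between the groups. It read 2.92, 5.35 and 7.07 in the lowest, middle and highest ES line, and 7.12 in NCCIT, 8.60 in 2102Ep, 8.37 in 833KE, 9.59 in TERA1 and 9.35 in NTERA2 on plastic. NCCIT stood only just above the highest ES line, Shef6. The difference was 3.28 ± 0.65 (SE; limma, adjusted p = 0.0174).

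MT1X probeset 3662257 was higher by 2.30 ± 0.49 (SE; limma, adjusted p = 0.0253), MT1F 3662209 by 3.00 ± 0.67 (adjusted p = 0.0309) and 3662240, annotated to MT1IP and MT1X, by 3.09 ± 0.75 (adjusted p = 0.0440). MT1A probeset 3662125 was higher by 2.93 ± 0.72 (adjusted p = 0.0463) and MT1L 3662138 by 3.82 ± 0.95 (adjusted p = 0.0480). In all 5 the groups overlapped. For MT1L 3662138 the overlap was NCCIT, which read 1.60 among ES lines at 0.89 to 3.80, while the other EC lines on plastic read 5.88 to 7.91. All 6 ES values of MT1L 3662138 and 5 of those of MT1A 3662125 were under the same 25th percentile.

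The calls on MT2A 2729857 and MT1X 3662258 held whichever 1 of the 11 arrays was left out, with limma adjusted p from 0.00288 to 0.0343 and from 0.00951 to 0.0459. Each of the other 5 was lost without some arrays. MT1L 3662138 was lost without any array but NCCIT (adjusted p = 0.0580 to 0.114 where lost, 0.000790 without NCCIT). MT1A 3662125 and the MT1IP and MT1X probeset 3662240 were lost without any but H14 or NCCIT (up to 0.0983 and 0.102). MT1F 3662209 was lost without Shef5, Shef6, Shef7, 2102Ep, 833KE or TERA1 (0.0522 to 0.0827), and MT1X 3662257 without Shef3, Shef7, 2102Ep, 833KE or TERA1 (0.0556 to 0.0621).

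The number called changed with the arrays included. It was 22 of 62 without H14, where 1.58% of all probesets were called in either direction, and 22 without NCCIT, where 3.33% were, against 2.81% with all 11 arrays. It was 3 without Shef5, Shef6 or Shef3 and 2 without 2102Ep, 833KE, TERA1 or Shef7, where 1.29% to 1.90% of all probesets were called. The median difference stayed between 1.47 and 2.16 whichever array was left out.

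For the member medians, tested in the same fit as all clusters, no EC plastic against ES difference passed the threshold. They were 2.37 ± 0.70 for MT1M (SE; limma, adjusted p = 0.0795), 2.29 ± 0.61 for MT2A (adjusted p = 0.0556), 2.20 ± 0.60 for MT1X (adjusted p = 0.0623) and 2.09 ± 0.59 for MT1F (adjusted p = 0.0719). MT1E, MT1L and MT1A had 1.97, 1.79 and 1.53 with adjusted p of 0.165 to 0.205. MT1H had 1.68 ± 1.26 and MT1G 1.23 ± 1.09, where the spread within the EC lines was 3.26 and 2.62 (SD, n = 5). MT3 had 0.05 ± 0.22. Without H14, MT2A (limma adjusted p = 0.0186), MT1F (0.0201) and MT1M (0.0353) passed, and without NCCIT MT1X (0.00891), MT2A (0.0400), MT1F (0.0409) and MT1A (0.0459) did. Without NTERA2, MT1M (0.0250) and MT2A (0.0468) passed.

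A count per array shows which EC lines carried the difference. Of the 62 member probesets, 54 in 833KE, 52 in TERA1 and 48 in 2102Ep on plastic were above all 6 ES lines, against 14 in NTERA2 and 4 in NCCIT. Over all probesets of the array, 18.7% to 23.4% were above all 6 ES lines in these 5 arrays. NCCIT's count of 4 of 62 was below that background and NTERA2's was near it. Against the 5 ES lines other than H14, the NTERA2 count was 38 and that of NCCIT 16, where 25.9% and 24.96% of all probesets were above those 5 lines, so that NCCIT stood near the background there too.

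**Figure D4:**
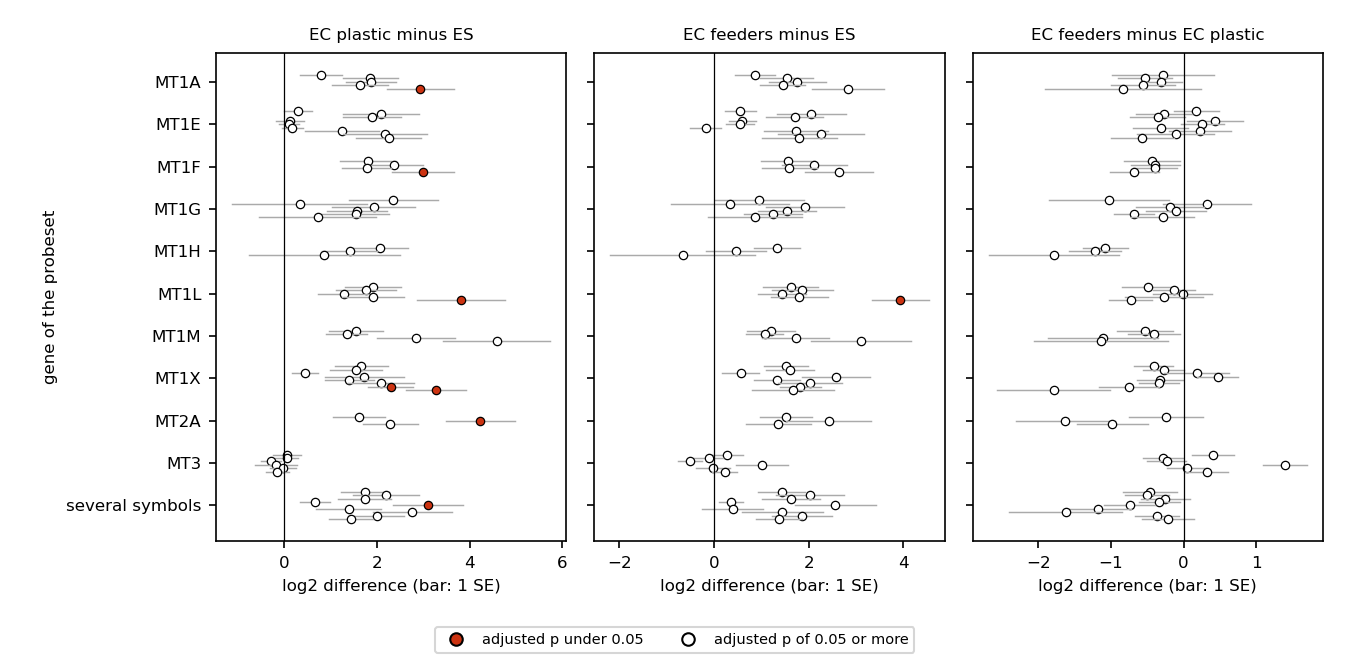
Each point is the log2 difference of 1 member probeset with a bar of 1 SE to each side, by gene and in 3 comparisons, filled where the adjusted p over all probesets was under 0.05. Most points lie above 0 for EC plastic and EC feeders against ES (7 and 1 filled), MT3 lies around 0 in both, and most lie below 0 for EC feeders against EC plastic, with none filled.

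The second comparison set the EC lines on feeders against the ES lines in the same medium. It shares the 6 ES arrays with the first, so the results are not independent. At the exon level 57 of 62 member probesets had a difference above 0, with a median of 1.52 against 0.06 over all probesets. Of these, 1 was called higher and none lower (limma, adjusted p under 0.05), where 0.610% of all probesets were called higher. At an unadjusted p under 0.05, 39 were higher and none lower, against 8.55% of all probesets higher. Above all 6 ES lines were 13 of 62 in NTERA2, 13 in 2102Ep and 38 in 833KE. Of all probesets 23.7%, 26.3% and 16.4% were, so only the count of 833KE was above its background. Against the ES lines other than H14 the counts were 44, 47 and 55, where 26.9%, 29.7% and 18.4% of all probesets were above.

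The called probeset was MT1L 3662138. It read 5.35 in NTERA2, 5.77 in 2102Ep and 7.30 in 833KE on feeders, all above the ES lines. The difference was 3.93 ± 0.60 (SE; limma, adjusted p = 0.0149), against ES readings that were all dim, and the call held whichever array was left out (adjusted p up to 0.0472). With all 14 arrays in 1 fit it had an adjusted p of 0.119 at the same difference. Without H14, 13 member probesets were called, and without NTERA2 on feeders 2 were, where 0.689% and 1.32% of all probesets were called in either direction, against 0.953% with all 9 arrays.

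The member medians were higher on feeders than in ES lines by 1.92 ± 0.53 for MT1X (SE; limma, adjusted p = 0.0941), 1.87 ± 0.65 for MT1F, 1.86 ± 0.66 for MT1L and 1.71 ± 0.73 for MT1E, none of which passed. MT2A stood at 1.36 ± 0.71 and MT1A at 1.33 ± 0.45. MT1H stood at -0.09 ± 1.17, with the 3 EC lines between 4.52 and 10.25. Without H14, MT1M (limma adjusted p = 0.0137), MT1A (0.0338) and MT1F (0.0360) passed.

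The differences went with the array codes. Between the EC feeders and ES arrays with a code of 13 or less (2 of each), the difference of the member medians was 0.46 for MT2A, 0.57 for MT1X, 0.38 for MT1F, 0.12 for MT1E, -0.67 for MT1G and -1.71 for MT1H. Between 833KE on feeders and the 4 ES lines with a code of 17 or more it was 2.46, 3.06, 3.11, 3.42, 3.43 and 3.32 for the same genes. The former set holds H14, NTERA2 and 2102Ep and the latter 833KE, so code and line cannot be told apart. For EC plastic, the arrays with a code of 17 or more gave differences from 1.63 (MT1H) to 2.86 (MT1M) for the 9 members other than MT3, with MT2A at 2.52.

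The third comparison set feeders against plastic in the 3 EC lines grown both ways, with the line as a block. At the exon level 11 of 62 member probesets were above 0, with a median of -0.35 against -0.01 over all probesets. None was called in either direction (limma, adjusted p under 0.05), and 0% of all probesets were called higher. At an unadjusted p under 0.05, 1 member probeset was higher and 5 lower, against 5.45% and 7.27% of all probesets, so these counts are near the background.

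The lines differed in direction. In 2102Ep 51 of 62 member probesets were lower on feeders, with a median change of -0.82, and in 833KE 51 were lower, with a median of -0.56. In NTERA2 39 were higher on feeders, with a median of 0.26. The changes over all probesets had medians of 0.06, -0.07 and -0.02 in the same order. The lower values in 2102Ep were widest for MT1H, whose median fell by 4.81 on the log2 scale, MT2A, whose median fell by 2.36, and MT1M, whose median fell by 2.01. The MT1H median was the reading of probeset 3662219 in both arrays, 10.43 on plastic and 5.63 on feeders. MT1H probeset 3662212 went from 10.56 to 8.89 and 3662218 from 6.73 to 4.70, so the size of the MT1H fall rests on 1 probeset. The MT2A median was likewise the reading of 1 probeset, 3662117, at 12.38 and 10.02. MT2A probeset 2729855 went from 13.24 to 12.22 and the dimmer 2729857 from 8.20 to 4.38. Probesets 3662113 and 3662116, shared by MT2A and MT1A, went from 12.05 to 11.52 and from 13.09 to 12.61. With 1 pair of arrays per line these are values without a replicate. NTERA2 and 2102Ep had codes of 13 or less on feeders and of 17 or more on plastic. In these lines growth condition and array code cannot be told apart. Both arrays of 833KE had a code of 17 or more. With the code as a block the difference rests on the 833KE pair alone. The median over the member probesets in that fit, -0.56, therefore repeats the 833KE value.

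At the gene level several clusters sat at the dim end of their probesets, while those of MT1G, of MT1M and MT1P3 and of MT1H and MT1F sat in the middle. The MT1L cluster was identical in all 14 arrays to 1 probeset, 3662138, with a mean of 4.41, while the other 4 MT1L probesets were brighter, with means up to 11.36. The cluster annotated to MT1H and MT1HL1 was identical to probeset 2462593, annotated to MT1P2, and the cluster of MT1JP, MT1E, MT1M and MT1P3 to probeset 3662159. The MT1X cluster had a mean of 5.17, under 9 of the 10 probesets with that symbol, the brightest of which had 12.06. Of the 10 member clusters, 3 had means under the 25th percentile of all clusters.

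**Figure D5:**
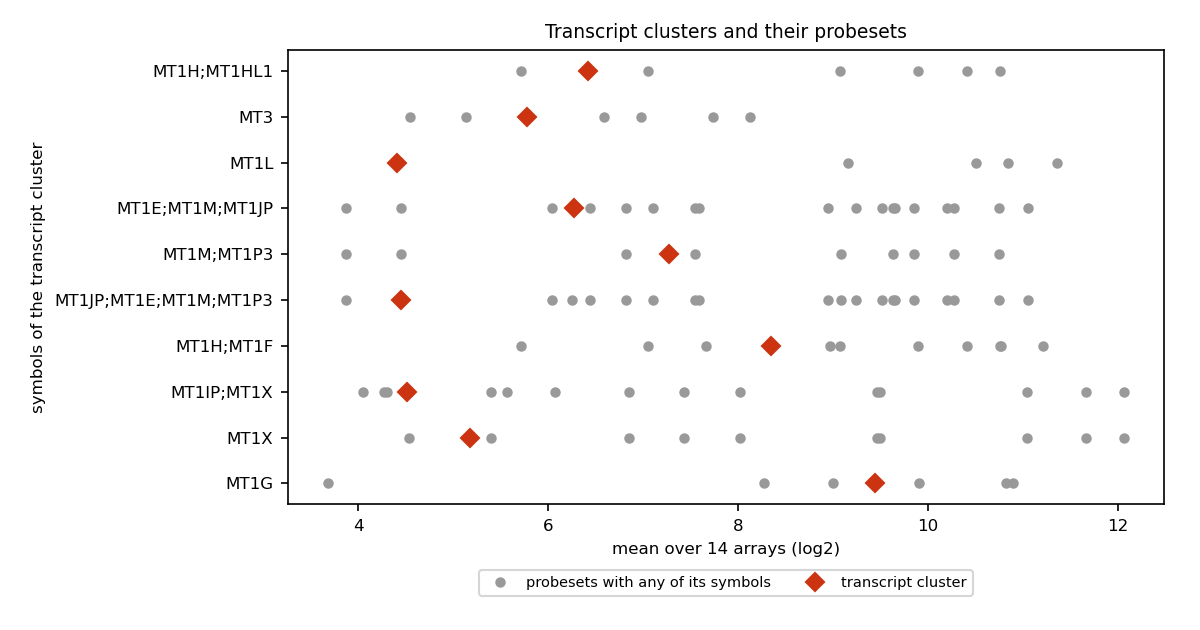
Diamonds are the log2 means over 14 arrays of the 10 member clusters, and grey points the means of all member and other metallothionein probesets annotated with any of the cluster's symbols. The MT1L and MT1X clusters lie at or near their dimmest probesets, and the MT1G cluster lies in the middle of its own, with 3 of 6 brighter.

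Of the 10 member clusters, none was called in EC plastic against ES lines (limma, adjusted p under 0.05; 3.26% of all clusters were called higher), and 4 were higher at an unadjusted p under 0.05, against 12.1% of all clusters. The median difference was 0.68, and 0.0046 over all clusters. The MT1L cluster had 3.82 ± 1.00 (SE; limma, adjusted p = 0.0521) and passed without NCCIT at 4.92 (0.000882). The cluster of MT1M and MT1P3 had 3.52 ± 1.05 (adjusted p = 0.0847), that of MT1H and MT1F 2.11 ± 0.61 (0.0757) and that of MT1X 0.70 ± 0.26 (0.165). The MT1G cluster had 0.66 ± 1.35, with 5.60 in NTERA2 and 6.23 in NCCIT against 11.73 to 12.48 in the other 3 EC lines.

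In EC feeders against ES lines 1 member cluster was called, MT1L at 3.93 ± 0.62 (SE; limma, adjusted p = 0.0140), where 1.56% of all clusters were called higher. The median over the 10 was 0.61, and 3 were called without H14, where 1.75% of all clusters were called in either direction. With all 14 arrays in 1 fit the MT1L call was lost (limma adjusted p = 0.0952). In feeders against plastic no member cluster was called (0% of all clusters were called higher), the median was -0.05, and 2 were lower and none higher at an unadjusted p under 0.05, against 7.86% and 7.02% of all clusters.

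Other genes of metal handling and of the signals known to induce metallothioneins were read at the gene level, from clusters with 1 symbol. Of 20 measured zinc transporters and metal regulators none passed in any comparison, and 4, 3 and 2 had an unadjusted p under 0.05 in the 3 comparisons (limma), as had 19.2%, 17.6% and 14.9% of all clusters. These counts, and the like counts of the lists that follow, are of few genes and are to be read against those shares. SLC30A6 and SLC30A7, zinc exporters of the secretory pathway, had 1.06 ± 0.30 and 1.01 ± 0.29 in EC plastic against ES lines (limma, adjusted p = 0.0654 and 0.0720).

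Of 7 measured copper genes 1 rose in EC plastic against ES lines, the copper transporter ATP7A, by 1.00 ± 0.21 (SE; limma, adjusted p = 0.0215). None passed in the other comparisons, where 3 and 3 had an unadjusted p under 0.05. Of 9 oxidative stress and NRF2 target genes 1 rose in EC plastic against ES lines. It was GCLM, a subunit of the enzyme that limits glutathione synthesis, by 0.85 ± 0.19 (adjusted p = 0.0282). Of all clusters 3.26% were called higher in EC plastic, so 1 gene says little about its list. On feeders GCLM had 1.00 ± 0.24 against ES lines (adjusted p = 0.0600).

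None of 6 heat shock genes and none of 7 genes of the glucocorticoid receptor and its targets passed in any comparison, and at an unadjusted p under 0.05 there were 0, 3 and 2 of the former and 0, 1 and 1 of the latter (limma). The smallest p values in each list in EC feeders against ES lines belonged to HSPB1, a small heat shock protein, at 1.36 (limma adjusted p = 0.0927), and BAG3, a co-chaperone, at 0.79 (0.148), and to the glucocorticoid targets TSC22D3 at 0.84 (0.0778) and SGK1 at 0.89 (0.381). Of 11 measured neighbours of the metallothionein genes on chromosome 16, 1 rose in EC plastic (1.00 ± 0.21, limma adjusted p = 0.0210) and in EC feeders (0.94 ± 0.18, adjusted p = 0.0283) against ES lines, HERPUD1, a gene of the endoplasmic reticulum stress response. The medians over the 11 were 0.03 and 0.01. Of all clusters, 3.26% and 1.56% were called higher in these comparisons.

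Across the 14 arrays, the clusters most like the median of the centred member clusters, among 3747 with 1 symbol and an SD of at least 0.5, were RNF19A (Pearson r = 0.92), NLRP7 (0.90), SESN1 (0.90), SEMG1 (0.89) and KCNE3 (0.88). RNF19A, a ubiquitin ligase gene, read 6.40 to 7.38 in ES lines, 7.37 in NTERA2, 7.92 in NCCIT and 8.88 to 9.30 in the other 3 EC lines on plastic. The points share arrays, cell lines and growth conditions, and the order is a description only.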

How the data were processed

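Labelled cDNA from 14 samples was hybridised to exon arrays. Per the submitters' processing notes the authors used RMA, Affymetrix Expression Console and limma; the settings are not given in the sources used here. The deposited values are log2 levels per transcript cluster and per probeset, used as deposited. The annotation came from the platform's probe table.

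Differences between group means were tested with limma 3.58.1 (R 4.3.3; lmFit and eBayes, two-sided, Benjamini-Hochberg over all clusters or all probesets, threshold 0.05), with the cell line as a block for feeders against plastic. Labels give each line in both conditions, which is where that pairing comes from. A member's level is the median over its probesets with 1 symbol. The code was tested on simulated data. All 10 members are named, and of the other lists the genes passing the test or, if none, the 2 with the smallest p, shown for 1 comparison. The members and lists were chosen with earlier results of these data known. Exon-level and probeset-median alternatives, and the symbols MT1P2 and MT1P3, were added after seeing the data.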

Additional observations from a re-analysis of the deposited data

Results flagged for a closer look

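Of 40 groups of 5 (EC plastic) or 6 (ES) arrays tested with Dixon's criterion, 4 held an array far from the others, where chance gives about 1 in 20. H14 was the highest ES line for the cluster of MT1M and MT1P3, at 8.72 with the next line at 5.73. It was also the highest for the cluster of MT1JP, MT1E, MT1M and MT1P3, at 6.32 with the next at 3.88, and for the MT1M probeset median, at 9.77 with the next at 7.65. All 3 values read MT1M and are not separate. NCCIT was the highest EC line on plastic for the MT3 probeset median, at 7.25 with the next at 6.70, a small distance in a gene that varied little.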

How the results depend on the processing

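No count or median over the members changed direction under any of the planned or added settings, except the cluster median of feeders minus plastic, near 0, which was 0.022 with all 14 arrays in 1 fit and 0.18 without 2102Ep. Shares of all features called under a setting, in either direction, are given with the counts. For EC plastic minus ES, the count of member clusters called was 1 rather than 0 with arrays centred on their medians (5.01% of all clusters). It was also 1 with all 14 arrays in 1 fit (4.80%) and with only the EC lines NTERA2, 2102Ep and 833KE (3.78%). With 1 array left out it was 0 to 2 (2.67% to 5.71%). The median over the clusters was 1.88 when probeset medians replaced clusters and 0.31 to 1.19 with 1 array left out. The count of probesets was 11 with the array code as a block, where 1.59% of all probesets were called. With 1 array left out it was 2 to 22 (1.29% to 3.37% of all probesets), with a median difference of 1.47 to 2.16.

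For EC feeders minus ES, the count of clusters was 0 with all 14 arrays in 1 fit, where 1.39% of all clusters were called. It was 0 without the dim clusters, which removes MT1L (4.01% of all), and 0 for probeset medians (2.29%). With 1 array left out it was 1 to 3 (0.759% to 2.70%). Codes from 17 only leave 1 EC feeders array, 833KE, so for that setting only differences are given. The median over the clusters was 1.54 with codes from 17 only, 1.45 for probeset medians and 0.28 to 1.11 with 1 array left out. The count of probesets was 0 with all 14 arrays, 0 without dim probesets, 4 with codes from 17 only and 1 to 13 with 1 array left out, and their median was 2.55 with codes from 17 only and otherwise, with 1 array left out, 1.33 to 1.81. For feeders minus plastic, 0 clusters and 0 probesets were called with any array left out, with medians from -0.60 to 0.18 and -0.70 to -0.15, and the fit without the replicate block changed no call.

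Differences that reversed were near 0 or wide, and none had been called. In EC plastic minus ES these were MT3's probeset median, at -0.029 after quantile normalisation, -0.021 after centring, -0.065 with 3 EC lines and -0.072 to 0.17 with 1 array left out, and the MT1G cluster at -0.032 to 1.69. In EC feeders minus ES they were the cluster of MT1H and MT1HL1 (0.22 with codes from 17, 0.025 with the code as a block, -0.25 to 0.23 with 1 array left out), that of MT1IP and MT1X (0.35 with codes from 17, -0.47 to 0.14), that of MT1E, MT1M and MT1JP (-0.071 to 0.45), that of MT1G (-0.11 to 2.29), and the probeset medians of MT1H (3.32 with codes from 17, 0.52 with the code as a block, -1.81 to 1.06) and MT3 (-0.054 with codes from 17, -0.094 with the code as a block). In feeders minus plastic they were the clusters of MT1G (0.067 with all 14 arrays and the line as a random block, -0.79 to 0.29), MT1E, MT1M and MT1JP (0.58 with the code as a block, -0.31 to 0.20), MT1IP and MT1X (-0.35 with the code as a block, -0.41 to 0.98), MT1X (-0.54 for the probeset median, -0.42 to 0.81) and MT1H and MT1HL1 (-0.058 to 0.60). The cause was not tested. MT3 and MT1H were the members whose EC minus ES probeset medians reversed. For the other 8 all 264 alternatives were above 0, which follows from setting those that reversed aside. The alternatives refit the same arrays and are not separate evidence. Codes from 17 only could not be fitted for feeders minus plastic, where they leave 1 pair.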
